A study of Mus musculus with 10 samples.

Results

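The data are 10 arrays of cochlear RNA, all from males at 9 months of age: 5 of wild-type Polg+/+ mice and 5 of PolgD257A/D257A mice, called D257A here. Polg copies mitochondrial DNA; with both alleles carrying D257A its proofreading is lost, and mutations build up in the mitochondrial genome. The genes described here are 8 genes of MHC class II antigen presentation: Cd74, H2-Aa, H2-Ab1, H2-Eb1, H2-DMa, H2-DMb1, Ciita and Ctss. They were taken by name, out of 18193 genes with a probe set of their own, and every probe set annotated to one of them was read on all 10 arrays. This gave 17 probe sets. For 7 of the genes at least 1 probe set was theirs alone, while the 2 probe sets of H2-DMb1 are also annotated to its neighbour H2-DMb2. The samples are whole cochlear tissue, so that fewer cells of a type and less RNA per cell cannot be told apart. The labels number the samples within each group but do not say that each is a separate animal, and the submitters' design text reports no replication. The p-values therefore measure the spread between these samples, which may be technical.

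MHC class II molecules carry peptides from endosomes to the cell surface, where CD4+ T cells read them. Alpha and beta chains assemble in the endoplasmic reticulum around the invariant chain, Cd74, which blocks the peptide groove. Of the members H2-Ab1 and H2-Eb1 are beta chains, and H2-Aa is an alpha chain, the partner of H2-Ab1. In endosomes the protease cathepsin S (Ctss) trims the invariant chain to a short remnant, and the H2-DM heterodimer (H2-DMa with H2-DMb1 or H2-DMb2) exchanges that remnant for peptide. Ciita is the coactivator that switches the chain genes, Cd74 and the DM genes on. Dendritic cells, B cells and some macrophages are the usual class II-expressing cells, and macrophages are resident in the cochlea.

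The promoters of the chain genes share short elements, and these are shown because Ciita acts on the chain genes and the DM genes through them, with Ctss beside them as a gene of the same pathway. RefSeq (GRCm38.p6) promoter windows were at hand for 5 of the 8 genes. The following are the 150 bases just before the start site, written 5′ to 3′ on the gene's own strand, with capitals on every match to one of 4 motifs.
H2-Aa (chr17:34287824-34287973, minus strand): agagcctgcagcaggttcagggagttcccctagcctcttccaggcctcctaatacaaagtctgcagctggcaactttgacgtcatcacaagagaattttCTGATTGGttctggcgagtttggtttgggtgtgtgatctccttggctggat
H2-Eb1 (chr17:34305717-34305866, plus strand): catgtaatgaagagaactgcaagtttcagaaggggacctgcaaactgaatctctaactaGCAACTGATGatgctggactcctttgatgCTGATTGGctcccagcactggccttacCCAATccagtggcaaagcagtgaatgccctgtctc
H2-DMb1 (chr17:34153041-34153190, plus strand): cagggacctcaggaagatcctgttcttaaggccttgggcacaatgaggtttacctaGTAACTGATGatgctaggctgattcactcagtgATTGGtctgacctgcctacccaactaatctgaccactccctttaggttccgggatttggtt
Ctss (chr3:95526636-95526785, plus strand): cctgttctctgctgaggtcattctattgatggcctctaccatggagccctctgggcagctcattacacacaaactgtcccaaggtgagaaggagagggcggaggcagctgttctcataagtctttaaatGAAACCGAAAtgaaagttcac

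Both strands were searched, and the motif letters were set with these windows in view. The Y box CTGATTGG began 51 bases before the start in H2-Aa and 62 bases before it in H2-Eb1; it occurs in 3.16% of 32851 promoter windows of this length. It contains the CCAAT core ATTGG, which H2-DMb1 held without the longer box, at 61 bases, and which 24.5% of windows hold. The X box core, GNAAC followed after 2 bases by ATG, lay upstream of it, at 91 bases in H2-Eb1 and 94 bases in H2-DMb1 (1.14% of windows). The H2-Aa window held no match to these exact letters, which does not show that it lacks an X box. The Ctss window had none of these motifs, but held the interferon response core, GAAA repeated after 2 bases, at 21 bases (1.59% of windows). Of the other class II chain genes, H2-Oa and H2-Eb2 held the Y box too, and H2-Ob and H2-Eb2 the X box core. Neither of the 2 H2-DMa windows held a match. These matches describe the letters of a window and nothing about binding.

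The question of the comparison was which transcripts differ in the cochlea when mitochondrial DNA mutations accumulate. Among the class II genes, the invariant chain Cd74 was lower on every D257A array than on any wild-type array, at about 2.14-fold less signal, and it alone passed the test. H2-Ab1 and H2-Eb1 were next, with differences in the same direction that missed the threshold. The differences in H2-Aa, H2-DMa and Ctss did not exceed the spread between arrays in the test, and the levels of Ciita and of the H2-DMb1 probe sets lay below the tested range.

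Values are array signals on a linear scale, and fold changes are differences of log2(signal + 16), which understates the change of dim genes. The test was limma on the brighter 0.5 of probe sets (ranked by mean log2 signal, with its lower edge equal to a signal of about 577; a probe set with a few high arrays can have a higher mean signal and still lie below it), with Benjamini-Hochberg adjustment over all 22518 of them at 0.05. The brightest probe set stood for a gene. Of the 17 class II probe sets 9 were tested, and of the genes 6. By gene, 1 of the 6 was called lower and 0 higher; over all 11871 tested genes 2.32% were called, 1.66% lower and 0.657% higher. By probe set, 1 of the 9 was called lower, against 1.24% lower and 2.28% in either direction over all tested probe sets. At an unadjusted limma p under 0.05, 3 of the 6 genes were lower, against 10.2% of tested genes (16.7% in either direction), and 5 of the 9 probe sets, against 8.64%. At the study's looser thresholds, an adjusted p of 0.3 and a fold of 1.1, the same count of 3 genes were lower, against 10.5%.

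Scaling moved these backgrounds. With arrays centred on their median, the median log2 fold change of all tested probe sets moved from -0.00054 to -0.10, and the share of called probe sets that were higher in D257A moved from 45.4% (233 higher, 280 lower) to 26.6% (174 higher, 479 lower). The log2 fold change of Cd74 relative to that median was -1.09 on both scales. Signals of 5 of the 6 tested members were lower in D257A on average, against 52.9% of tested genes, and their median log2 fold change was -0.54, against -0.022 for all tested genes.

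Cd74 encodes the invariant chain, the chaperone of newly made class II molecules. Its wild-type signals in replicates 1 to 5 were 9448.5, 11585.3, 10690.5, 9412.8 and 13963.7. Its D257A signals were 5507.9, 3649.9, 6334.5, 5685.0 and 4737.3. The groups did not overlap: the highest D257A signal, in replicate 3, was well below the lowest wild-type one, in replicate 4, and D257A was lower in 25 of the 25 pairs of arrays. Cd74 fell from 11020 ± 1881 to 5183 ± 1029 (SD, n = 5 each), a log2 fold change of -1.09 (SE 0.18, 95% interval -1.49 to -0.70, limma adjusted p = 0.0101). A two-sided exact permutation test gave p = 0.00794, the smallest that 5 arrays against 5 allow. With any 1 of the 10 arrays left out the call held (limma adjusted p up to 0.0373, without wild-type replicate 2).

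H2-Ab1 encodes the beta chain that pairs with H2-Aa to form I-A, the mouse counterpart of HLA-DQ. Its brightest probe set measured 3936.0, 5853.6, 5507.3, 3536.4 and 5357.7 in wild-type replicates 1 to 5. In D257A replicates 1 to 5 it measured 3183.7, 1739.3, 2504.0, 3493.9 and 3091.2. The groups did not overlap, although D257A replicate 4 came close to wild-type replicate 4, the lowest of its group. The means were 4838 ± 1032 and 2802 ± 694 (SD, n = 5 each), with a log2 difference of -0.80 (SE 0.22, 95% interval -1.27 to -0.32) that missed the threshold (limma adjusted p = 0.0831; exact permutation p = 0.00794). Together with Cd74 this made 2 of 6 tested members whose D257A signals all lay below the wild-type ones, as in 3.52% of all tested genes; of the probe sets these were 2 of 9, against 2.69%.

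H2-Eb1 encodes the beta chain of I-E, the counterpart of HLA-DR. It measured 6789.5, 8160.5, 8357.6, 5197.3 and 9454.4 in wild-type replicates 1 to 5, and 5226.4, 2921.0, 5794.4, 5082.5 and 4265.1 in the D257A replicates. The groups overlapped through wild-type replicate 4, which lay below D257A replicates 1 and 3, and D257A was lower in 23 of 25 pairs. The means of 7592 ± 1640 and 4658 ± 1114 differed by -0.71 on the log2 scale (SE 0.22, 95% interval -1.18 to -0.24), which was not called (limma adjusted p = 0.112; exact permutation p = 0.0238). That exact p was 0.0857 when the 2 arrays least correlated with their own groups, wild-type replicate 3 and D257A replicate 2, were left out, at a log2 difference of -0.51.

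H2-Aa encodes the I-A alpha chain, and it is the member with the most probe sets, 4. The brightest, one whose suffix (x_at) marks probes that may cross-hybridise, measured 11525.9, 13462.9, 20055.5, 10769.6 and 14404.0 in wild-type replicates and 12135.8, 14731.0, 10082.3, 8692.1 and 8302.2 in D257A replicates. The groups overlapped widely, with the highest D257A signal in replicate 2, the array that was lowest of all for Cd74, H2-Ab1 and H2-Eb1. Its log2 difference was -0.38 (SE 0.21, 95% interval -0.83 to 0.073, limma adjusted p = 0.382, and -0.69 with adjusted p = 0.101 as the mean over its probe sets; exact permutation p = 0.135, and 0.0476 at -0.50 without D257A replicate 2). A second x_at probe set differed by -0.58 (adjusted p = 0.179). Another, s_at, a suffix for probes matching several transcripts, had signals of 1288.4 to 4283.9 in wild-type and 562.8 to 2447.9 in D257A, a difference of -1.30 with an interval of -2.18 to -0.41 (adjusted p = 0.121). The fourth was below the tested range. All 4 were negative, and their estimates ran from -1.30 to -0.38 for what the annotation gives as a single gene.

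The 2 other probe sets of H2-Ab1 overlapped between groups. The separation given above for H2-Ab1 therefore rests on its brightest probe set, whose suffix is also s_at. On the dimmer tested one, wild-type signals ran from 613.6 to 1776.9 and D257A signals from 104.3 to 1696.5. Its log2 difference of -0.52 had an SE of 0.63 (limma adjusted p = 0.729) and turned to 0.20 without D257A replicate 2. The brightest probe set stayed at -0.64 without that array. The untested one was lowest in wild-type replicate 3 (69.2) and D257A replicate 2 (38.3) as well, the same pair of arrays that stood furthest from their groups over all probe sets (mean correlation with the own group 0.876 and 0.839, against 0.878 to 0.939 for the other arrays).

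**Figure D1:**
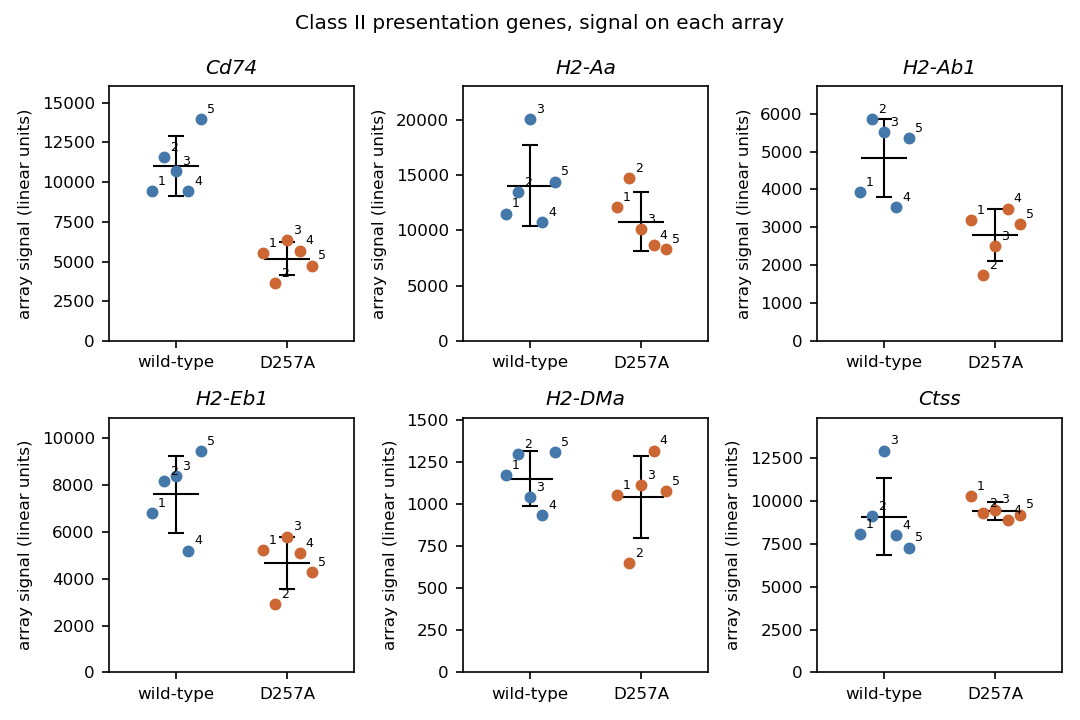
Array signal (linear units, axes from 0) of the 6 tested class II genes, one panel each with its own axis; points are the 5 arrays of a group, numbered by replicate, and bars are the mean and SD. The 5 D257A points lie below all wild-type points for Cd74 and H2-Ab1, and overlap them for the other 4 genes.

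The H2-DM heterodimer loads peptide onto class II molecules. H2-DMa, its alpha chain, measured 1172.0, 1300.0, 1044.3, 935.0 and 1312.2 in wild-type and 1055.6, 651.8, 1112.9, 1318.8 and 1080.7 in D257A replicates. Apart from the low D257A replicate 2, the 2 groups covered the same range, and the log2 difference was -0.16 (SE 0.21, 95% interval -0.61 to 0.28, limma adjusted p = 0.738). A dim second probe set of H2-DMa stayed between 11.9 and 173.3. The 2 probe sets annotated to both H2-DMb1 and H2-DMb2 had mean log2 signals below the tested range and pointed in opposite directions. One, with signals of 179.3 to 1106.3 in wild-type and 164.9 to 1011.8 in D257A, differed by -0.52, and the other, 216.4 to 291.1 and 107.8 to 594.6, by 0.49 (limma adjusted p = 0.703 and 0.593 with no filter). The beta chain of DM was thus not measured apart from its neighbour.

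Cathepsin S carries out the last steps of invariant chain cleavage. Ctss measured 8053.4, 9131.2, 12941.1, 8010.6 and 7290.1 in wild-type replicates and 10306.3, 9310.6, 9507.5, 8885.8 and 9214.6 in D257A replicates. All D257A values lay within the wild-type range, which wild-type replicate 3 extended upwards. The means were 9085 ± 2253 and 9445 ± 531 (SD, n = 5 each), and the log2 difference was 0.085 (SE 0.17, 95% interval -0.27 to 0.44, limma adjusted p = 0.844). Without wild-type replicate 3 it was 0.22 (exact permutation p = 0.0317). The sign turned to -0.016 when arrays were centred on the median.

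Ciita, the class II transactivator, had 3 probe sets, all below the tested range. The brightest measured 121.9 to 250.3 in wild-type and 197.7 to 414.9 in D257A, a log2 difference of 0.59 (SE 0.31). The others differed by -0.79 and 0.84, so their directions disagreed. With no filter the adjusted p-values in limma were 0.381, 0.48 and 0.498. At these signals the transcript was not shown to be above background, and no difference in Ciita was detectable in either direction.

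**Figure D2:**
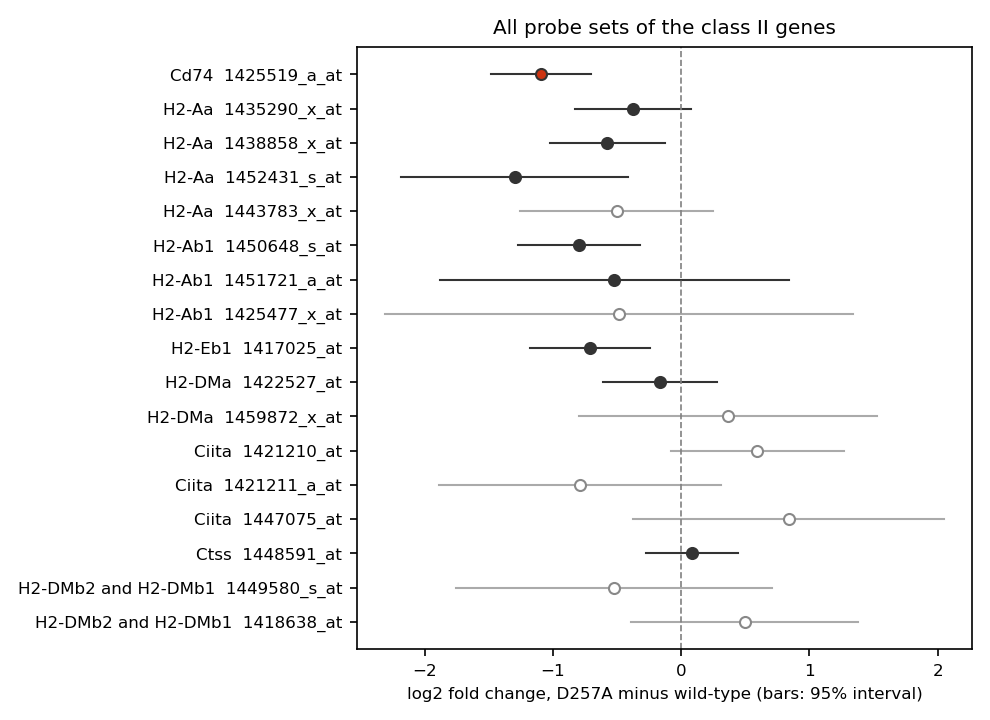
Log2 fold change (D257A minus wild-type) of all 17 class II probe sets with its 95% interval from limma; filled points were tested, open grey ones lay below the tested range, and the red one was called. Cd74 is the only called probe set, and the intervals of the brightest H2-Ab1 probe set, of H2-Eb1 and of 2 H2-Aa probe sets also lie below 0.

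Cd74 was also set against 10 other genes as a log2 ratio within the same array. Cd74 was picked here because it was the called member, after the values of the others were seen, so the ratios are a description with no test. Its own groups did not overlap, so its ratio to a gene that differed little can separate the groups too. How many of all tested genes give such a ratio was not counted. The log2 ratio of Cd74 to Ctss differed between groups by -1.18, the ratio to H2-DMa by -0.93 and the ratio to H2-Eb1 by -0.38, and for these 3 the groups did not overlap. The ratios to H2-Aa and H2-Ab1 differed by -0.72 and -0.30, with overlap. The first of these depends on the H2-Aa probe set: it uses the brightest one, whose own difference was -0.38, whereas the s_at probe set differed by -1.30, more than Cd74.

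The same ratio was set against some genes of macrophages, dendritic cells and leucocytes at large. No B cell marker was among them, and Itgax was the only dendritic cell marker. Markers with lower signals in D257A, such as Zbtb46 and Blnk, were not used, nor were several with higher signals. The ratios therefore do not describe Cd74 relative to all cells that carry class II. The CSF1 receptor Csf1r, which marks macrophages, had wild-type signals of 15797 ± 2458 and D257A signals of 18053 ± 3875 (SD, n = 5 each; limma adjusted p = 0.669), and the ratio of Cd74 to it differed by -1.27. For Cd68, a lysosomal protein of macrophages, and Tyrobp, a signalling adaptor of myeloid cells, the ratios differed by -1.33 and -1.59. For Itgax, the integrin CD11c of dendritic cells, the ratio differed by -1.11. These 4 ratios did not overlap between groups, as the signals of Cd74 itself did not. The ratio to Ptprc, the pan-leucocyte phosphatase CD45, differed by -1.12 with overlap, and by -0.82 without wild-type replicate 3 and D257A replicate 2.

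**Figure D3:**
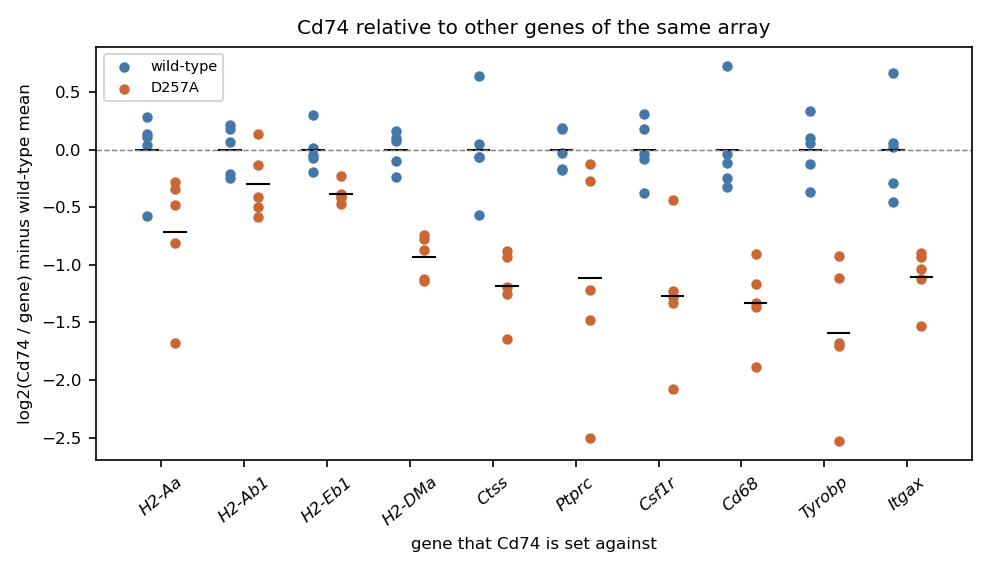
Log2 ratio of Cd74 to each of 10 genes on the same array, minus the wild-type mean of that ratio; points are arrays (5 per group) and short lines are group means. The D257A points lie below all wild-type points for H2-Eb1, H2-DMa, Ctss, Csf1r, Cd68, Tyrobp and Itgax, and overlap them for H2-Aa, H2-Ab1 and Ptprc.

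Members varied together to differing degrees. Over the 10 arrays the correlation of Cd74 with H2-Eb1 was 0.93 and with H2-Ab1 0.89, and after subtraction of each group's mean it was 0.93 and 0.70. Cd74 and H2-DMa gave 0.58, and 0.82 within groups. The brightest H2-Aa probe set followed Cd74 less (0.43, and -0.14 within groups), and Ctss did not follow it (-0.21 and -0.070). These are descriptions over 10 arrays with nearly the same trimmed mean signal (1494 to 1496) and medians from 551.7 to 649.3. D257A replicate 2 was the lowest of all arrays for Cd74, H2-Eb1, H2-Ab1 and H2-DMa, and it bears on all of these correlations.

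Genes outside the pathway with the most similar pattern were ranked by their correlation with the mean of Cd74, H2-Aa, H2-Ab1 and H2-Eb1. The 10 at the top were Kat6a (0.97), Plpp5 (0.96), Igha (0.94), Wdr5 (0.94), Mcee (0.94), Nf2 (0.93), Lrig1 (0.93), P2rx4 (0.93), Abitram (0.93) and Rassf6 (0.93). Igha, the constant region of immunoglobulin A heavy chains, fell by 2.25 on the log2 scale, with wild-type signals of 4738 ± 2396 against 907 ± 155 (SD, n = 5 per group; limma adjusted p = 0.00239). The mitochondrial epimerase gene Mcee fell as well, with 3510 ± 524 and 2046 ± 213 (limma adjusted p = 0.0263). The other 8 were not called. Ranked by Spearman's rho, 4 of these 10 stayed in the top 10, and ranked within groups, 3 did.

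Other genes of class II processing and control came from lists written from textbook knowledge. None of the 29 tested genes of these lists was called. At an unadjusted limma p under 0.05 there were 2, Ctsh and Cxcl10, against 16.7% of all tested genes. Of the 12 proteases and cofactors of processing, 10 were tested, 5 with negative and 5 with positive differences (median -0.042). Cathepsin H (Ctsh), a lysosomal aminopeptidase, had means of 5665 ± 657 (wild-type) and 3740 ± 685 (D257A; SD, n = 5 each). Its groups did not overlap, and its log2 difference of -0.61 missed the threshold (limma adjusted p = 0.0817; -0.32 and 0.233 as the mean over its probe sets). Cathepsin D (Ctsd) differed by -0.78 with wide overlap (adjusted p = 0.332), while Ctsb, Ctsl and the thiol reductase Ifi30 (GILT) differed by -0.20, -0.19 and 0.12 (adjusted p of 0.59 and above).

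The factors that bind class II promoters were all measured. Of 8, 7 had positive differences, with a median of 0.090, but with arrays centred on the median only 3 of 8 did, with a median of -0.011. None was called, also at an unadjusted limma p under 0.05. Rfx5, which binds the X box, measured 1810 ± 315 and 1914 ± 292 (SD, n = 5 each; limma adjusted p = 0.857). Its partner Rfxap differed by 0.21, and the Y box factors Nfyb and Nfyc by 0.17 and 0.082. The myeloid and B cell factor Spi1 (PU.1) measured 762 ± 130 and 1107 ± 348, a log2 difference of 0.49 (adjusted p = 0.307).

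Interferon gamma is the main inducer of Ciita outside professional presenting cells. Of its axis 9 genes were tested, 4 positive and 5 negative (median -0.022). Cxcl10, a chemokine induced by interferons, measured 528.2 to 786.3 in wild-type and 868.1 to 2636.0 in D257A, without overlap, at a log2 difference of 1.21 that missed the threshold (limma adjusted p = 0.0551; 0.0271 to 0.145 with 1 array left out). Groups did not overlap upwards in 1.77% of tested genes. The receptor chains Ifngr1 and Ifngr2 differed by -0.31 and 0.33 (adjusted p = 0.401 and 0.36). The receptor kinase Jak1 differed by -0.42 (adjusted p = 0.517). Ifng itself stayed at signals of 11.8 to 239.5 over all arrays, below the tested range. Of the co-stimulation list only Cd274 and Icosl were tested, with differences of 0.33 and -0.27.

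Markers of the cell types that could carry class II are given as measured beside the lower Cd74, and their part in it was not tested. Of 16 macrophage markers with a probe set 14 were tested, 11 of them positive (9 with arrays centred on the median), 0 called in limma and 3 at an unadjusted p under 0.05 (16.7% of all tested genes), with a median log2 fold change of 0.29; their summed signals ran from 43914 to 52368 in wild-type and from 49689 to 64847 in D257A. The complement gene C1qb and Tyrobp differed by 0.45 and 0.49 (limma adjusted p = 0.208 and 0.224). Pan-leucocyte markers were positive in 6 of 7 with a median of 0.40, with sums of 20241 to 24360 and 20042 to 32782, and 0 were called in limma (3 at an unadjusted p under 0.05). Cd53, a leucocyte tetraspanin, had the smallest p of them at a difference of 0.61 (adjusted p = 0.115), and Ptprc differed by 0.023, a sign that turned when arrays were centred on the median.

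B cell and dendritic cell markers were mostly dim. Only 3 of 14 B cell markers were tested and none was called in limma, also at an unadjusted p under 0.05. Of these Ebf1 and Cd22 were positive (0.12 and 0.21) and Blnk negative (-0.53, adjusted p = 0.299), with a median of 0.12. Sums over the list ran from 12159 to 15154 in wild-type and from 9929 to 20023 in D257A. Ebf1 was the largest part of them, at 6515 ± 1503 and 7528 ± 3382 (SD, n = 5 each), with 11810.1 on D257A replicate 2. Cd79a and Cd79b, the signalling chains of the B cell receptor, measured 547.1 to 881.6 and 256.6 to 704.4 in wild-type, and 304.4 to 573.4 and 34.9 to 442.8 in D257A, with log2 differences of -0.69 and -1.22 (limma adjusted p = 0.199 and 0.279 with no filter). Vpreb3, of developing B cells, differed by -1.21 (0.134 with no filter). The other B cell markers below the tested range went both ways. Upwards were Cd37 (0.65), the B lineage factor Pax5 (0.58), the complement receptor Cr2 (0.38) and Ms4a1 (CD20, 0.19). Downwards were Pou2af1 (-0.43), Fcrla (-0.18), Fcer2a (-0.17) and Blk (-0.021). For all of these the limma adjusted p was 0.348 and above with no filter. Of 11 dendritic cell markers 5 were tested, none called in limma (2 at an unadjusted p under 0.05), with sums of 8327 to 10150 and 10052 to 12193. Fscn1 was the largest part of these sums, at 3828 ± 511 and 5832 ± 1016 (SD, n = 5 each), so they mostly follow that gene. Zbtb46, a transcription factor of classical dendritic cells and endothelium, differed by -0.63 (adjusted p = 0.115) and Clec10a by -0.096. Flt3 differed by 0.19 and Itgax by 0.010 (-0.091 with arrays centred on the median). The actin bundler Fscn1, which neurons also express, differed by 0.60 (adjusted p = 0.0836). Below the tested range, Cd209a measured 371.2 to 452.7 in wild-type and 209.0 to 383.6 in D257A, a log2 difference of -0.50. Itgae differed by -0.0093, and Ccr7, Xcr1, Siglech and Batf3 by 0.36, 0.25, 0.22 and 0.15. With no filter the limma adjusted p of these dim dendritic cell markers was 0.36 and above.

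T cell markers were tested for 2 of 9, Thy1 (-0.48) and Cd8a (-0.26), with none called in limma (1, Thy1, at an unadjusted p under 0.05). Sums were 17602 to 24109 and 13018 to 18506, most of it Thy1, which neurons express as well. The others stayed below the tested range. Cd3d measured 43.1 to 116.5 in wild-type and 15.7 to 31.5 in D257A, a difference of -1.04. Cd3g and Cd5 differed by -0.78 and -0.014, and Cd3e, Cd2, Il7r and Cd28 by 0.15, 0.27, 0.21 and 0.30. With no filter the limma adjusted p of these dim T cell markers was 0.14 and above. The monocyte list held 2 calls in opposite directions among 5 tested genes. Lyz2, a lysozyme of myeloid cells and mucosal secretions, fell by 2.22 on the log2 scale (limma adjusted p = 0.00307), with wild-type signals of 70019 ± 25522 against 14302 ± 3485 (SD, n = 5 per group). Plac8 rose by 0.93 (limma adjusted p = 0.0489), with 1894 ± 93 and 3814 ± 1373. That call held in 1 of 10 fits on 9 arrays (adjusted p up to 0.124, without wild-type replicate 2) and was lost with arrays centred on the median. The list's summed signals, dominated by Lyz2, were 35898 to 97470 and 15718 to 28968.

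**Figure D4:**
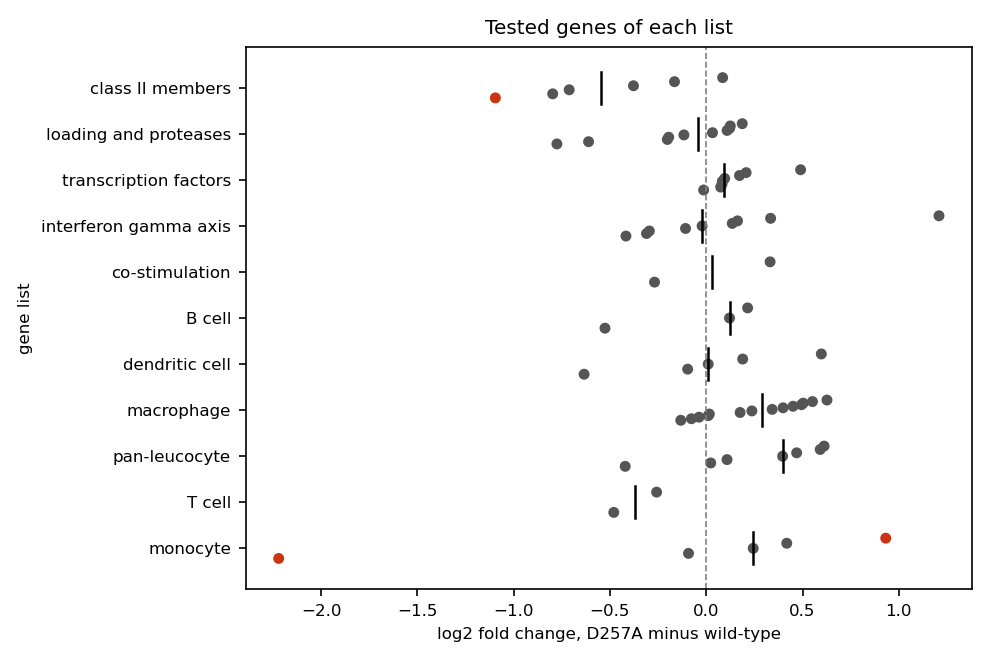
Log2 fold change (D257A minus wild-type) of the tested genes in the class II, pathway and cell marker lists shown. Each point is a gene, short lines are list medians, and red points were called. The neutrophil, muscle and cochlear lists (medians 0.88, -3.24 and -0.11) are not drawn. The class II members have a median of -0.54 while macrophage and pan-leucocyte markers have medians of 0.29 and 0.40.

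**Figure D5:**
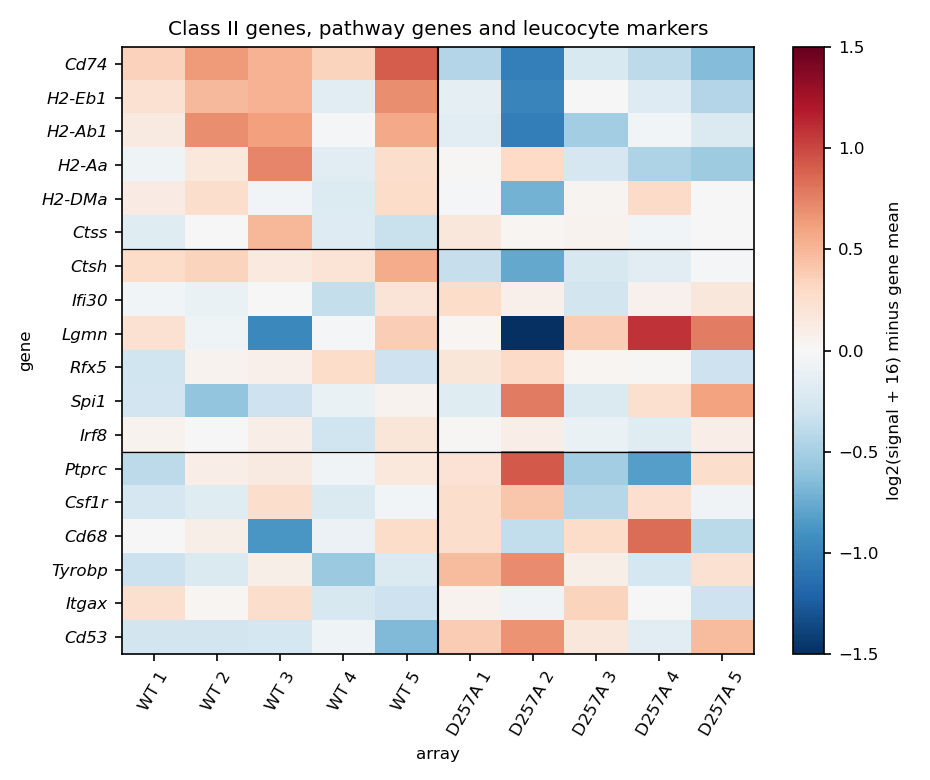
Log2(signal + 16) minus the gene's mean over 10 arrays, for tested class II genes (top block), pathway genes (middle) and leucocyte markers (bottom), by array; colours are capped at 1.5 in either direction. Cd74 is above its mean on all 5 wild-type arrays and below it on all 5 D257A arrays, whereas Ctss, Csf1r and Ptprc show no such split.

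Whole-tissue checks bear on these values. Trimmed mean signals were 1494 to 1496 on all arrays. The cochlear markers Coch (65510.6 to 83744.1 in wild-type, 57562.8 to 80129.6 in D257A) and Otos were measured at high signal in both groups, and 0 of 12 tested cochlear markers was called in limma (2 at an unadjusted p under 0.05). Skeletal muscle markers were negative in 10 of 10, 5 of them called lower and 9 at an unadjusted limma p under 0.05, with summed signals of 174304 to 474147 in wild-type and 21777 to 250885 in D257A. Neutrophil markers were positive in 10 of 10 tested, 9 at an unadjusted limma p under 0.05 and 2 called higher (Mpo and Ctsg, in 3 and 4 of the 10 fits with 1 array left out; the highest adjusted p was 0.0803 for Mpo, when wild-type replicate 4 was omitted, and 0.0833 for Ctsg, when wild-type replicate 5 was), with sums of 72570 to 121496 and 101224 to 301766. The part of muscle and neutrophil RNA in the Cd74 difference was not tested. No batch information was used here.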

How the data were processed

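The authors deposited an intensity on a linear scale for every probe set of each array. The submitters' processing notes name GCOS 1.3; how it treated background and scaling is not given in the sources used here. Left out were 64 control probe sets filled on 1 array only. Probe sets were named from the platform annotation through gene IDs: of 45037, 34945 had 1 gene, 932 several and 9160 none. Signals were taken as log2(signal + 16) and fitted with group as the only term in limma 3.58.1 (R 4.3.3; lmFit, eBayes with trend), on the 22518 probe sets in the brighter 0.5 by mean log2 signal, with 8 residual degrees of freedom. Probe sets outside it are given from the fit with no filter. Exact permutation tests are two-sided over 252 regroupings.

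Members and lists (15 in all) were chosen with earlier results of these data known. Named were all member probe sets, up to 4 genes of each list with the smallest p, defining markers, and the 10 genes most like the class II pattern; further list genes named for their role were chosen after their values were seen. The script was checked on simulated data. The number of arrays limits the precision; detection calls were not used here. The alternatives were other pseudocounts, scalings, filters and variance models, a replicate block, other thresholds and probe set means, and arrays left out.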

Additional observations from a re-analysis of the deposited data

Results flagged for a closer look

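In 1 of 22 groups of 5 arrays checked (11 class II probe sets, tested or brightest of their gene, in each genotype) a single array stood apart from the others by Dixon's criterion. The dimmer tested H2-Ab1 probe set measured 104.3 in D257A replicate 2, against 1212.8 to 1696.5 on the other D257A arrays. Chance alone flags about 1 in 20 such groups.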

How the results depend on the processing

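Cd74 was called lower under 20 of 21 alternatives, with log2 fold changes from -1.20 to -0.98. The exception was the replicate block: its adjusted p was then 0.0527 in limma, 0 members were called, and 188 probe sets were called in all against 513. The replicate numbers are not shown to pair the samples, since deviations of same-numbered arrays correlated between -0.34 and 0.18 and 3 of 10 arrays correlated best with their own number. Leaving out 1 array gave 1 called member throughout, 4 to 12 called list genes (9 with all arrays) and 197 to 571 called probe sets. With array weights 2 members (Cd74 and H2-Ab1), 20 list genes and 1217 probe sets were called. At an adjusted p of 0.1 these were 2, 16 and 1076, and at 0.3 with a fold of 1.1 they were 3, 34 and 3913. The brightest 30% gave 322 probe sets. The mean over probe sets has no probe set count and gave 1 member. In exact permutation tests that left out 1 array, the H2-Aa difference ran from -0.50 to -0.24 (p = 0.0476 to 0.27) and that of Ctss from 0.014 to 0.22 (p = 0.0317 to 0.984). H2-Eb1 gave -0.51 (exact permutation p = 0.0857) without the pair of outlying arrays. Of the 10 most similar genes 4 stayed by Spearman's rho and 3 within groups.

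Some signs turned. Centring on the median gave -0.016 for Ctss (in limma and in the permutation test), -0.077 for Ptprc, -0.091 for Itgax and -0.017 for Rfx5, and quantile normalization -0.093 for Itgax. Ptprc was -0.11 with array weights, -0.17 without the pair of outlying arrays and -0.20 to 0.23 when 1 array was left out; Itgax was -0.073 to 0.088 and the dimmer H2-Ab1 probe set -0.77 to 0.20 in the latter. With probe set means H2-Aa was -0.69, H2-Ab1 -0.60 (adjusted p = 0.625) and Ctsh -0.32, and Csf1r was -0.044 and Ifngr2 -0.0070. The cause was not tested.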

Other observations

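Among pathway genes below the tested range, the following were singled out after their values were seen. Marchf1, a ubiquitin ligase that removes class II from the cell surface, measured 232.2 to 447.8 in wild-type and 384.0 to 642.3 in D257A, a log2 difference of 0.61 (limma adjusted p = 0.284 with no filter). Napsa, an aspartic protease, measured 57.1 to 577.8 and 374.5 to 1667.8 (1.18; adjusted p = 0.31). Socs1, an inhibitor of interferon signalling, measured 58.7 to 291.8 and 181.0 to 477.3 (1.07; adjusted p = 0.222). The other class II chains were dim as well: H2-Oa, H2-Ob, H2-Ea, H2-Eb2 and H2-DMb2 ranged from 73.7 to 707.6 over all arrays, with differences from -0.66 (H2-Ob) to 0.12 (H2-Eb2). None of these was shown to be above background.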
